A study of Homo sapiens with 8 samples.

Results

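SRGN, ORM1 and ORM2 are 3 of the 26364 gene symbols measured by RNA-seq in MV4-11 cells treated with palbociclib, TCP or both. SRGN encodes serglycin, the proteoglycan of secretory granules, and ORM1 and ORM2 encode the orosomucoids, which are secreted glycoproteins. They were chosen by their symbols because their level was higher with palbociclib than in the control and lower in the combination than with palbociclib alone. That choice rests on the values of the control, palbociclib and combination libraries, so these differences are given below as a description and without a test. TCP against control and the combination against TCP played no part in the choice and were tested, although they share the control and the combination libraries with it. For ORM1 and ORM2 the second of these is also given without a p, for the reason stated there.

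MV4-11 is a human AML cell line with an internal tandem duplication of FLT3 (FLT3-ITD) and the MLL-AF4 fusion, and all groups share this genotype. Control cells received DMSO, the TCP group received tranylcypromine (TCP), an LSD1 inhibitor, at 5 μM, the palbociclib group received this CDK4/6 inhibitor at 0.5 μM, and the combination group received both at these doses. Day 4 is the time on every label, while the methods of the study place TCP after 1 day of palbociclib alone. Each of the 4 groups has 2 libraries from 1 cell line, and nothing says whether these came from separate cultures, so the tests below measure the spread between libraries only. Values are TPM, reads per transcript length scaled to the same total in every library, so levels of different genes can be compared, and the sequencing depth is unknown.

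Serglycin carries glycosaminoglycan chains, mostly chondroitin sulphate in myeloid cells, on a stretch of alternating serine and glycine residues. The negative charge of these chains holds proteases and chemokines inside granules, and serglycin is needed for the storage of neutrophil elastase in azurophil granules. Orosomucoids, or alpha-1-acid glycoproteins, are acute-phase proteins of the lipocalin family, made mainly by the liver under the control of interleukins and glucocorticoids, and neutrophils store them in their granules and secrete them on activation.

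SRGN lies on the plus strand of chromosome 10 (GRCh37, chr10:70847859-70864561) and its transcript in the annotation has 3 exons, 1217 bases and 158 codons. The part that makes serglycin a proteoglycan is encoded in exon 3, at chr10:70863682-70863744. It is shown because each serine followed by glycine is a possible attachment point for a chain. In the 63 bases printed here 5′ to 3′, capitals mark the 13 codons of uninterrupted serine and glycine, residues 99 to 111.

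SRGN exon 3: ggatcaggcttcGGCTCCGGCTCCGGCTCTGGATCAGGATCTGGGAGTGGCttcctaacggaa

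These 13 codons hold 6 serines and 7 glycines, and the whole coding sequence has 8 serine-glycine pairs. The repeat is short and lies inside a coding exon, and no other annotated gene overlaps SRGN.

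ORM1 (chr9:117085378-117088759) and ORM2 (chr9:117092149-117095531) are neighbours on the plus strand of chromosome 9 in GRCh37, each with 6 exons and 201 codons. Their transcripts, of 764 and 759 bases, align over 759 bases, of which 728 are identical (95.92%). The 31 differing bases all lie in the coding sequence, which is 94.88% identical, and none falls in a gap. The 60 bases of exon 4 with the most differences are shown because reads from here can tell the genes apart. They lie at chr9:117087079-117087138 in ORM1 and chr9:117093856-117093915 in ORM2, and capitals mark the 14 bases that differ.

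ORM1 exon 4: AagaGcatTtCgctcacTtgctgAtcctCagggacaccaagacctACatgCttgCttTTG
ORM2 exon 4: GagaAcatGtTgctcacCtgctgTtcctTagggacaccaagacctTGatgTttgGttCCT

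Outside this region the transcripts run identical for up to 242 bases. Of the 690 windows of 75 bases in the ORM1 transcript, 286 (41.45%) occur unchanged in ORM2, and with 50 bases the share is 49.79%. A read that falls in such a window cannot be placed in 1 of the genes by its sequence alone. The division of reads between ORM1 and ORM2 is therefore uncertain, and their sum is given beside them.

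The cells were checked before the values of these genes were read. All 13 myeloid AML markers reached 1 TPM, with a summed level of 1424 to 1515 TPM in the control and TCP libraries and 2726 to 3009 TPM in the palbociclib and combination libraries. Markers of hepatocytes, the main source of orosomucoids in the body, summed to at most 1.45 TPM in any library, with 3 of 9 at 0 throughout, mast cell markers to at most 2.32 TPM and megakaryocyte markers to at most 6.82 TPM. T and NK cell markers summed to 169 to 311 TPM, nearly all of it NKG7, and were higher with palbociclib. The myeloid and the T and NK cell sums thus moved with the levels reported here, and their part in these was not tested. Single myeloid markers did not all move this way. From control to palbociclib the mean fell for FLT3 (235 to 82.3 TPM), HOXA9 (161 to 109), HOXA10 (104 to 69.5) and MEIS1 (43.5 to 29.8). It rose for the other myeloid markers, such as CD68 (113 to 676 TPM). Stromal markers, of which 9 of 12 reached 1 TPM, summed to 21.9 to 50.4 TPM in 7 libraries and to 128 TPM in palbociclib replicate 2. In each other group replicate 2 also had the higher stromal sum, at 21.9 and 26.1 TPM for replicates 1 and 2 in the control. With TCP these sums were 32.5 and 33.8 TPM, and in the combination 39.5 and 50.4 TPM. By size palbociclib replicate 2 stands apart. The differences, shares kept and list medians of palbociclib below are also given without it where they concern SRGN, ORM1 and ORM2 or where a list median moved by over 0.1. By the methods of the study its AML cell lines were grown on a layer of human HS-5 stromal cells, and the labels do not say whether this holds for the RNA-seq cells. The part of stromal RNA in the levels was not tested.

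SRGN was among the most abundant transcripts in every group. It measured 4629 and 4986 TPM in the control libraries, 3362 and 4014 with TCP, 22631 and 22343 with palbociclib, and 15474 and 14694 in the combination. The groups did not overlap, and the order from low to high was TCP, control, combination, palbociclib. In rank among all gene symbols SRGN stood 11th and 10th in the control libraries and 28th and 14th with TCP, and it moved up to 2nd and 3rd with palbociclib and to 4th in both combination libraries. It made up 2.26% and 2.23% of all TPM with palbociclib, compared with 0.463% and 0.499% in the control. At such a share SRGN itself lowers the TPM of other genes. The 10 most abundant entries together took 9.12% to 9.67% of TPM in control and TCP libraries and 14.0% to 15.8% in those with palbociclib. Most of this rise was not SRGN, as the 9 most abundant entries other than SRGN went from 8.59% to 9.17% up to 11.7% to 14.2%. The most abundant entry in every library was MIR6087, at 22704 to 40060 TPM.

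The mean level of SRGN was 22487 ± 204 TPM with palbociclib (SD, n = 2) and 4808 ± 252 TPM in the control, a ratio of 4.68. It was 15084 ± 551 TPM in the combination, which is 67.1% of the palbociclib mean and 3.14 times the control mean. Of the increase in TPM with palbociclib, 58.1% was kept in the combination. On the log2(TPM + 1) scale SRGN was 2.23 (SE 0.10) higher with palbociclib than in the control and -0.58 (SE 0.10) in the combination against palbociclib. Without palbociclib replicate 2 these differences were 2.24 and -0.59, and 57.7% of the increase was kept. With quantile normalization the palbociclib difference was 1.62. SRGN was higher in every library with palbociclib than in any without it, also where TCP was added. In RNA from whole cultures, a change in the share of cells that express a gene and a change in RNA per cell cannot be told apart.

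ORM1 was nearly silent without palbociclib. It measured 0.870 and 0.799 TPM in the control libraries, was listed at 0 and at 0.652 TPM with TCP, and reached 90.6 and 64.5 TPM with palbociclib and 23.7 and 13.6 TPM in the combination. Libraries with palbociclib did not overlap with those without it, and both combination libraries lay below both palbociclib libraries. The palbociclib mean was 77.5 ± 18.5 TPM (SD, n = 2) and that of the combination 18.7 ± 7.17 TPM, or 24.1% of it. Of the increase with palbociclib, 23.2% was kept in the combination. The differences in log2(TPM + 1) were 5.40 (SE 0.33) for palbociclib against control and -2.03 (SE 0.33) for the combination against palbociclib, or 5.64 and -2.27 without palbociclib replicate 2. Without it 19.9% of the increase was kept.

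ORM2 ran at a lower level in the same order of groups at the high end. It measured 0.288 and 0.113 TPM in the control libraries, was listed at 0 and at 0.463 TPM with TCP, and reached 29.9 and 21.6 TPM with palbociclib and 8.76 and 5.43 TPM in the combination. Control and TCP libraries overlapped, and the combination lay between them and palbociclib. The combination mean of 7.10 ± 2.36 TPM (SD, n = 2) was 27.6% of the palbociclib mean of 25.7 ± 5.84 TPM, and 27.0% of the increase was kept. The differences in log2(TPM + 1) were 4.46 (SE 0.28) for palbociclib against control and -1.74 (SE 0.28) for the combination against palbociclib, or 4.69 and -1.96 without palbociclib replicate 2. In that case 23.2% of the increase was kept.

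The ratio of ORM1 to ORM2 was 3.03 and 2.98 in the palbociclib libraries and 2.71 and 2.50 in the combination. It was 3.02 and 7.04 in the control and 1.41 in the TCP library that listed them above 0, where both genes were below 1 TPM. Summed, the orosomucoids measured 103 ± 24.3 TPM with palbociclib (SD, n = 2), 25.8 ± 9.52 TPM in the combination and 1.03 ± 0.174 TPM in the control. Within each treated group with palbociclib, replicate 1 was the higher library for SRGN, ORM1 and ORM2 alike. Beside its mean, the SD was smaller for SRGN than for the orosomucoids in both groups.

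**Figure D1:**
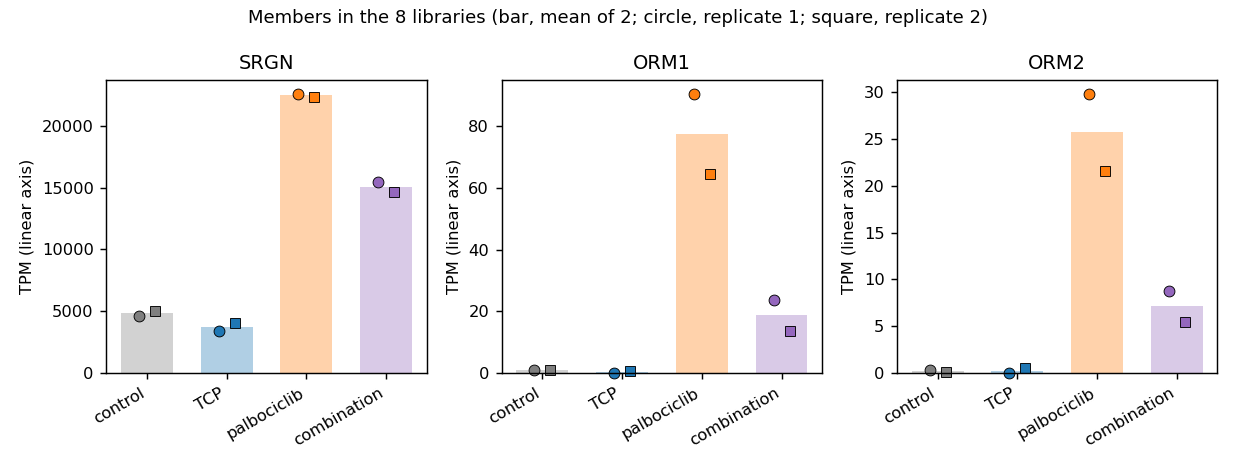
Level in TPM of SRGN, ORM1 and ORM2 on linear axes that start at 0, in control, TCP, palbociclib and combination libraries, with circles for replicate 1, squares for replicate 2 and bars for the mean of 2. SRGN starts from about 4808 TPM and stays high in the combination, while ORM1 and ORM2 start below 1 TPM and keep about 24.1% and 27.6% of their palbociclib mean.

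TCP alone was compared with the control to ask whether the LSD1 inhibitor lowers these genes without palbociclib. A gene was called when its log2 fold change reached 1 in either direction with an adjusted p below 0.01 (limma, Benjamini-Hochberg over 14151 genes tested). None of SRGN, ORM1 and ORM2 was called, in a comparison that called 8 genes, or 0.0565% of those tested. SRGN differed by -0.39 (SE 0.10) in log2(TPM + 1), a mean of 3688 ± 461 TPM (SD, n = 2) that is 76.7% of the control mean, with both TCP libraries below both control libraries. Its unadjusted p was 0.00729 and its adjusted p 0.274 (limma, Benjamini-Hochberg), beside a median difference of -0.04 over all genes tested and 1241 genes with an unadjusted p below 0.05. The spread between the TCP libraries is a large part of this difference, and without TCP replicate 1 it was -0.26. For ORM1 the difference was -0.51 (SE 0.33, limma adjusted p 0.722) and for ORM2 0.01 (SE 0.28, limma adjusted p 0.994). At levels below 1 TPM a decrease of the orosomucoids with TCP alone was not detectable in these libraries. An exact permutation test of 2 against 2 libraries cannot go below a p of 0.333, so no such test is given.

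The combination was compared with TCP to ask whether palbociclib raises these genes when TCP is present. SRGN was 2.04 (SE 0.10) higher in log2(TPM + 1), with an adjusted p of 4.0e-05 (limma, Benjamini-Hochberg) and a mean 4.09 times that of TCP alone. ORM1 was 3.89 (SE 0.33) and ORM2 2.71 (SE 0.28) higher on this scale. For SRGN both combination libraries lay above both TCP libraries. Differences were common in this comparison, where 8095 of the 14151 genes tested had an unadjusted p below 0.05 (limma). In this comparison 5.46% of the genes tested were called higher and 6.7% lower, and the median difference was -0.18. That split depends on scaling, with 772 higher and 948 lower by TPM and 969 higher and 623 lower when each library was scaled by its median ratio to the others, which moved the median to -0.00728. The orosomucoids passed the filter on low values only through their libraries with palbociclib, so for them a difference was built into being tested and no p is given. The combination libraries also took part in the choice of the genes, SRGN included. SRGN passed the filter in every library.

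A larger decrease in the combination than with TCP alone would appear as an interaction of the drugs. It contains the comparison of the combination with palbociclib and is given without a test. It was -0.19 (SE 0.15) for SRGN, -1.51 (SE 0.46) for ORM1 and -1.75 (SE 0.40) for ORM2 in log2(TPM + 1), and -0.20, -1.76 and -1.98 without palbociclib replicate 2. For SRGN the interaction is little larger than its standard error, and the mean with TCP was 67.1% of that without TCP where palbociclib was present and 76.7% where it was not. For ORM1 with a pseudocount of 0.1 in place of 1 the interaction was -0.32.

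**Figure D2:**
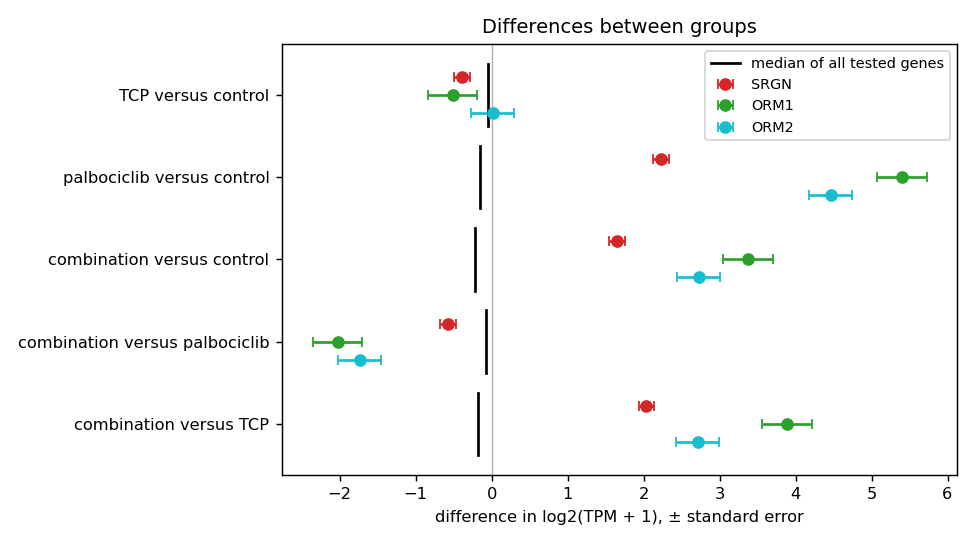
Differences in log2(TPM + 1) with standard errors for SRGN, ORM1 and ORM2 in 5 comparisons of groups, and a black line at the median of all genes tested. TCP against control lies at -0.39 for SRGN, -0.51 for ORM1 and 0.01 for ORM2, all comparisons of a group with palbociclib and a group without it lie well above 0, and the combination against palbociclib lies at -0.58, -2.03 and -1.74.

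How common is this pattern among all genes? With palbociclib against control 4.54% of the 14151 genes tested were called higher and 4.56% lower (643 and 645 genes, or 817 and 414 after median-ratio scaling), and 799 genes had a log2 fold change of at least 1. In 214 of the 799 both combination libraries lay below both palbociclib libraries, which is 1.51% of the genes tested and describes the pattern by which SRGN, ORM1 and ORM2 were chosen. Over all genes tested, raised or not, both combination libraries lay below both palbociclib libraries in 5258 (37.2%), so that part of the pattern is common. Without palbociclib replicate 2, both combination libraries had to lie below palbociclib replicate 1 only. This looser rule was met by 261 of 721 genes, a count that cannot be set against 214 of 799. At the edge of this group stood SLC1A3, a glutamate transporter, with a log2 fold change of 1.00035 just inside it, and ZNF597 with 0.999 just outside. By the size of the palbociclib increase ORM1 ranked 3rd, ORM2 12th and SRGN 139th among the genes tested. By the size of the decrease in the combination they ranked 4th, 6th and 74th among the 214. The combination against palbociclib called 71 genes, 0.502% of those tested, of which 65 were higher in the combination and 6 lower.

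The genes called both higher with palbociclib and lower in the combination than with palbociclib were 3, named here because of that small count. ADAMDEC1, a secreted metalloproteinase of macrophages and dendritic cells, measured 23.8 and 30.7 TPM with palbociclib and 9.33 and 10.2 TPM in the combination, from below 1 TPM in the control. TP53INP2, which takes part in autophagy, measured 54.8 and 63.4 TPM and then 28.0 TPM in both combination libraries. SERPINB10, a serine protease inhibitor of myeloid cells, measured 4.83 and 5.03 TPM and then 1.09 and 1.07 TPM. Like the orosomucoids, ADAMDEC1 and SERPINB10 were barely present without palbociclib. They passed the filter on low values only through libraries with palbociclib, so a difference was built into their being tested. For all 3 genes both calls use the palbociclib libraries, so errors in these act on both.

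**Figure D3:**
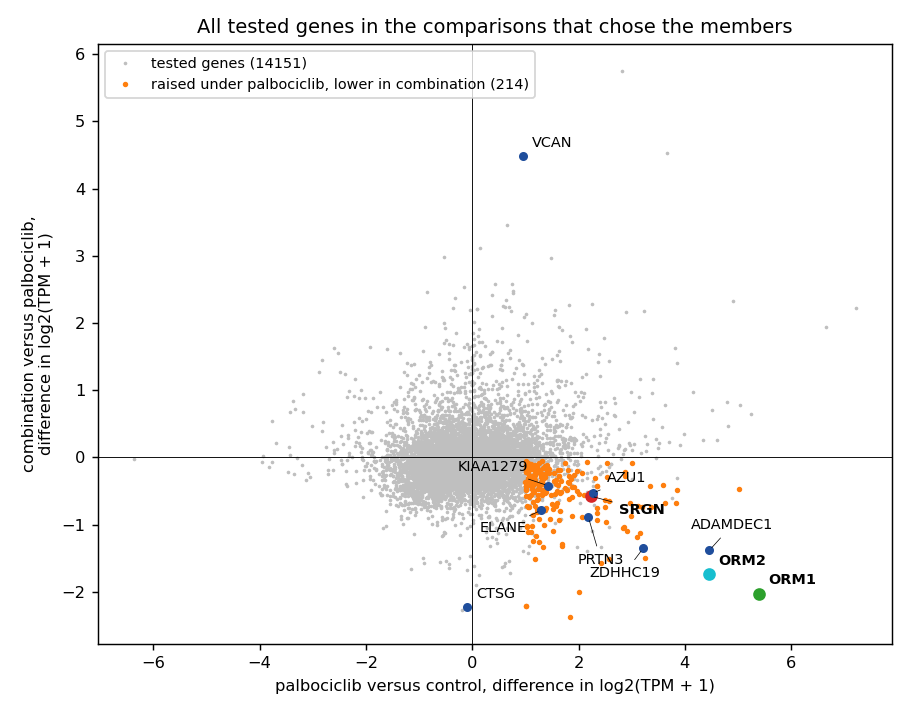
Each point is 1 of the 14151 genes tested, with the difference in log2(TPM + 1) of palbociclib against control on the horizontal axis and of the combination against palbociclib on the vertical axis; both use the palbociclib libraries, so errors in these move a point along both. Orange points are the 214 genes of the pattern, ORM1 and ORM2 lie at its lower right end, and SRGN lies close to AZU1 within it.

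The genes whose levels ran most like each of them over the 8 libraries were found by Pearson correlation of log2(TPM + 1) among 3278 genes with a mean of at least 5 TPM and a range of at least 1 log2 unit. These values come from 4 groups of 2 libraries and describe the groups as much as the genes. For SRGN they were LIMK2 (r = 0.9951), a kinase of cofilin, VILL (0.9949), a villin-like protein, RGS18 (0.9946), a regulator of G protein signalling in blood cells, KIAA1279 (0.9944), a kinesin-binding protein, and AZU1 (0.9942), the azurophil granule protein azurocidin. AZU1 measured 768 and 674 TPM in the control, 585 and 572 with TCP, 3394 and 3535 with palbociclib and 2308 and 2478 in the combination. Its order of groups is that of SRGN, and no groups overlap.

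For ORM1 the most alike were ORM2 (r = 0.9963), ZDHHC19 (0.9959), KIAA1279 (0.9922), SRGN (0.9893) and PADI2 (0.9887), and for ORM2 they were ORM1, ZDHHC19 (0.9887), KIAA1279 (0.9876), PADI2 (0.9846) and ADAMDEC1 (0.9836). The likeness of ORM1 and ORM2 includes the reads they may share. ZDHHC19, of the palmitoyltransferase family, measured 16.5 and 13.0 TPM with palbociclib and 5.86 and 4.46 TPM in the combination, and was below 1 TPM in the other libraries. PADI2, which turns arginine in proteins into citrulline, measured 17.9 and 16.5 TPM with palbociclib and 11.2 and 8.82 TPM in the combination. Both therefore share with the orosomucoids a start below 1 TPM in the control.

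KIAA1279, which is listed in the annotation as KIFBP, is also the nearest gene before SRGN (GRCh37, chr10:70748559-70803300), 44559 bases from it. It measured 21.0 and 22.1 TPM in the control, 18.4 and 22.4 with TCP, 60.4 and 59.1 with palbociclib and 44.1 and 44.5 in the combination. The combination lay between control and palbociclib, as for SRGN, while TCP and control overlapped. KIAA1279 was 1.43 higher in log2(TPM + 1) with palbociclib than in the control (limma adjusted p 0.000158) and 1.09 higher in the combination than with TCP (limma adjusted p 0.000261). Its difference of -0.42 between combination and palbociclib did not pass (limma adjusted p 0.0828).

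The other genes around SRGN had other patterns. The RNA helicase genes DDX21 and DDX50, further before it, differed by -0.65 and -0.72 for palbociclib against control (limma adjusted p 0.00229 and 0.00106), under the fold threshold. On the other side VPS26A, a retromer subunit 18707 bases away, differed by 0.28, the mitochondrial helicase gene SUPV3L1 by -0.46, and HKDC1 stayed below 0.1 TPM on average in every group. HKDC1 was too low to be tested. Of the neighbours tested KIAA1279 was thus the only one called higher with palbociclib, a call that 4.54% of all genes had.

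Of the nearest 6 listed genes around the orosomucoids 3 were tested, and none was called higher with palbociclib, a call that 4.54% of all genes had. AKNA, a gene on the opposite strand that ends 905 bases after ORM2, had group means of 34.3 TPM in the control, 34.6 with TCP, 45.8 with palbociclib and 50.7 in the combination. Its mean was highest in the combination, where those of ORM1 and ORM2 were below palbociclib, but its difference of 0.15 between combination and palbociclib did not pass (limma adjusted p 0.460). For palbociclib against control AKNA differed by 0.40 (limma adjusted p 0.0106). COL27A1, a fibrillar collagen gene 10587 bases before ORM1, differed by -1.004 in log2(TPM + 1) for the combination against TCP and was called lower (limma adjusted p 0.00709). KIF12 and MIR455 were listed at 0 in every library, DFNB31 (WHRN in the annotation) stayed below 1 TPM on average, and ATP6V1G1 differed by 0.34 for palbociclib against control (limma adjusted p 0.133).

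A promoter sequence in the RefSeq table was found for 1 of the 3 genes, ORM1. It is shown because ORM1 had among the largest increases of all genes tested. The window covers 250 bases before the start site and 50 after it (GRCh38.p14, chr9:114322848-114323147, plus strand), and the 250 bases before the start, to 114323097, are printed 5′ to 3′ with the motif matches in capitals.

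ORM1 promoter: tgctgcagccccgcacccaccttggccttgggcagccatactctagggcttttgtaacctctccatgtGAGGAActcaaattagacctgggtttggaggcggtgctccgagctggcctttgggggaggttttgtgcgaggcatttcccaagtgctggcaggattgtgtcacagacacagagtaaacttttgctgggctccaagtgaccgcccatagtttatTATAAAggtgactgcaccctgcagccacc

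On both strands of the 300 bases, the TATA box letters TATAAA occurred once, from base -29, as in 11.53% of 35116 RefSeq promoters of this length. The ETS letters GAGGAA occurred once, from base -182, as in 27.85% of promoters. The letters TTGCNNAA for C/EBP (found in 10.46% of promoters), TGANTCA for AP-1 (7.709%), GGGNNNTCC for NF-kB (21.02%) and AGAACA for a glucocorticoid receptor site (14.79%) did not occur in this window. The matches do not overlap each other, and no binding was measured here.

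Of 23 genes of glycosaminoglycan synthesis, which build the chains of serglycin, 19 were tested, and 1 was called higher with palbociclib than in the control and 1 in the combination against TCP. Over all genes these shares were 4.54% and 5.46%, so the list lies near the background. In both comparisons the gene was CSGALNACT1, which starts the chondroitin chain, with 0.424 ± 0.0370 TPM in the control, 0.339 ± 0.109 with TCP, 5.05 ± 1.25 with palbociclib and 5.79 ± 1.38 in the combination (SD, n = 2). CSGALNACT1 passed the filter on low values only through its libraries with palbociclib, so a difference was built into its being tested. Its mean in the combination was not below that with palbociclib. The chain-lengthening factors CHPF and CHPF2 differed by 0.52 and 0.67 for palbociclib against control, under the fold threshold, and PAPSS2, which makes the sulphate donor, by 0.53. The list's median was 0.14 for palbociclib against control and 0.32 for the combination against TCP, beside medians of -0.16 and -0.18 over all genes tested.

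Of 19 proteins that serglycin is known to bind or store 12 were tested, with a median of 0.36 for palbociclib against control and 0.66 for the combination against TCP. Without palbociclib replicate 2 the first median was -0.13. The neutrophil elastase gene ELANE measured 798 and 709 TPM in the control, 425 and 401 with TCP, 1802 and 1907 with palbociclib and 1115 and 1034 in the combination. PRTN3, which encodes proteinase 3, measured 971 and 831, 419 and 417, 4401 and 3798, and 2534 and 1918 TPM in the same order. Both had the order of groups seen for SRGN, TCP below control and combination below palbociclib, with no overlap. Combination below palbociclib without overlap was found in 37.2% of all genes tested. ELANE and PRTN3 were called higher with palbociclib (1.30 and 2.19, limma adjusted p 0.000117 and 0.000129). With the myeloperoxidase gene MPO, named after its values were seen, they were also called higher in the combination against TCP. Over all genes 4.54% and 5.46% were called higher in these comparisons.

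With TCP against control ELANE differed by -0.86 and PRTN3 by -1.10 in log2(TPM + 1), with limma adjusted p of 0.0142 and 0.0400, which did not pass the threshold of 0.01. In the combination against palbociclib they differed by -0.79 (limma adjusted p 0.00782, under the fold threshold) and -0.89 (0.0287). CTSG, the cathepsin G gene, named here after its values were seen as another azurophil protease of the list, had another order of groups. It measured 76.1 and 49.9 TPM in the control, 22.6 and 13.1 with TCP, 51.0 and 65.0 with palbociclib, and 9.77 and 13.5 in the combination, so its 4 lowest libraries were those with TCP and its control and palbociclib libraries overlapped. The perforin gene PRF1 was the only list member called lower in the combination against TCP (-1.50, limma adjusted p 0.00977), a call that 6.7% of all genes had. The chemokine gene CXCL8 varied widely between replicates, with 81.8 and 299 TPM with palbociclib. CXCL8 was higher in replicate 2 of every group, with 25.8 and 93.9 TPM in the control and 27.2 and 54.0 with TCP. In the combination it measured 89.5 and 135 TPM. Palbociclib replicate 2 is the library with the highest stromal markers, and the part of these in the level of CXCL8 was not tested.

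Of 32 other proteoglycan core proteins 15 were tested, with a median of 0.03 for palbociclib against control (-0.21 without palbociclib replicate 2). With 1 called higher and 1 lower the list lies near the background of 4.54% and 4.56%. VCAN, which encodes versican, measured 0.783 and 1.16 TPM in the control, 14.7 and 16.96 with TCP, 2.86 and 2.79 with palbociclib and 88.4 and 81.8 in the combination. It is the 1 gene of all the lists called with TCP against control (3.10, limma adjusted p 0.00101), and it was 4.49 higher in the combination than with palbociclib (limma adjusted p 7.7e-05), the opposite direction to SRGN. HSPG2, the perlecan gene, was called higher with palbociclib (1.05, limma adjusted p 0.00298) and CSPG4 lower (-1.38, limma adjusted p 0.00180), while DCN and SDC4 differed by 1.10 and 1.04 and did not pass. DCN, itself a stromal marker, measured 0.164 and 6.13 TPM with palbociclib and SDC4 1.46 and 8.03 TPM, so the high value of both is that of palbociclib replicate 2. In each other group both genes were also higher in replicate 2, at lower levels. CSPG4 and CSPG5, the second named after its values were seen, were called lower in the combination against TCP, a call that 6.7% of all genes had.

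Among 17 genes of the lipocalin family, to which the orosomucoids belong, 3 were tested. PTGDS, the prostaglandin D synthase, measured 0.744 ± 0.219 TPM in the control, 0.158 ± 0.223 with TCP, 7.88 ± 0.681 with palbociclib and 4.32 ± 0.906 in the combination (SD, n = 2), and was called higher with palbociclib (2.35) and in the combination against TCP (2.20). PTGDS passed the filter on low values only through its libraries with palbociclib, so a difference was built into its being tested. Over all genes 4.54% and 5.46% were called higher in these comparisons. Its difference between combination and palbociclib was -0.75 (limma adjusted p 0.124). APOM and C8G were not called in any of these comparisons. The median over the 3 genes was 0.94 for palbociclib against control.

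Of 23 other acute-phase plasma proteins 7 were tested, and 5 of these were called higher with palbociclib than in the control and 4 in the combination against TCP, with medians of 2.37 and 2.52. Over all genes 4.54% and 5.46% were called higher. The other 16 genes of the list were too low to be tested, and HP passed the filter on low values only through its libraries with palbociclib, so the tested genes were in part selected by their difference. AGT, the angiotensinogen gene, named after its values were seen, was the 1 gene of the list with the pattern of the orosomucoids. HP, which encodes haptoglobin, measured 0.510 and 0.535 TPM in the control, 0.268 and 0.218 with TCP, 23.9 and 16.01 with palbociclib and 16.7 and 9.31 in the combination. The palbociclib and combination libraries of HP overlapped, and its difference between them was -0.61 (limma adjusted p 0.329). The protease inhibitor gene SERPINA1 had means of 61.3 ± 6.0 TPM with palbociclib and 78.3 ± 3.63 TPM in the combination (SD, n = 2), the complement gene C3 40.5 ± 9.40 and 78.3 ± 3.88 TPM, and LRG1 744 ± 39.0 and 668 ± 72.9 TPM. None of these was called between combination and palbociclib, and over the 7 genes the median difference was -0.12, beside -0.07 over all genes tested.

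Of 14 regulators of acute-phase genes 13 were tested, with 2 called higher with palbociclib and 4 in the combination against TCP, and medians of 0.75 and 0.99. Over all genes 4.54% and 5.46% were called higher in these comparisons. The first median was 0.40 without palbociclib replicate 2. CEBPD, a C/EBP transcription factor, had means of 125 ± 14.6 TPM in the control, 91.7 ± 12.5 with TCP, 251 ± 25.7 with palbociclib and 272 ± 10.2 in the combination (SD, n = 2). CEBPB, named after its values were seen, had 87.7 ± 3.36, 62.1 ± 0.715, 160 ± 8.47 and 185 ± 0.0331 TPM in that order. SOCS3, an inhibitor of cytokine signalling, was called higher in both comparisons (1.26 and 1.75), and IL6R, named likewise after its values were seen, in the combination against TCP. IL6 and IL1B had SDs near or above their means with palbociclib. With palbociclib IL6 measured 8.08 TPM in replicate 1 and 84.6 TPM in replicate 2, the library with high stromal markers. In the other groups IL6 was also higher in replicate 2, with 3.39 and 14.5 TPM in the control and 2.92 and 11.7 with TCP. In the combination it measured 14.7 and 23.7 TPM.

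A list of 18 neutrophil granule proteins was drawn up for the specific and gelatinase granules, where orosomucoids are found, although its member BPI belongs to azurophil granules. Of these 18, 6 were tested, with medians of 2.44 for palbociclib against control and 1.99 for the combination against TCP. The first was 2.62 without palbociclib replicate 2. The other genes of the list were too low to be tested, so these medians describe only the genes that passed the filter. CHI3L1, a chitinase-like protein, had means of 14.7 ± 3.75 TPM in the control, 10.1 ± 4.02 with TCP, 383 ± 89.3 with palbociclib and 469 ± 189 in the combination (SD, n = 2). BPI, an antibacterial protein of azurophil granules, had 0.589 ± 0.0992, 1.19 ± 0.965, 8.24 ± 0.0200 and 7.77 ± 0.608 TPM in that order. These 2 genes and HP were called higher in both comparisons, calls that 4.54% and 5.46% of all genes had. HP passed the filter on low values only through its libraries with palbociclib, so a difference was built into its being tested. SLPI differed by 2.35 for palbociclib against control without passing (limma adjusted p 0.0126). Over the 6 genes the median difference between combination and palbociclib was -0.28, and none was called. SLPI and BPI, 2 of the 6, met the pattern by which the orosomucoids were chosen. It held for 1.51% of all genes, but for 214 of the 799 with a log2 fold change of at least 1 under palbociclib. For BPI the decrease in the combination was within its standard error, at -0.08 (SE 0.28), and for SLPI it was -0.83 (SE 0.55).

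**Figure D4:**
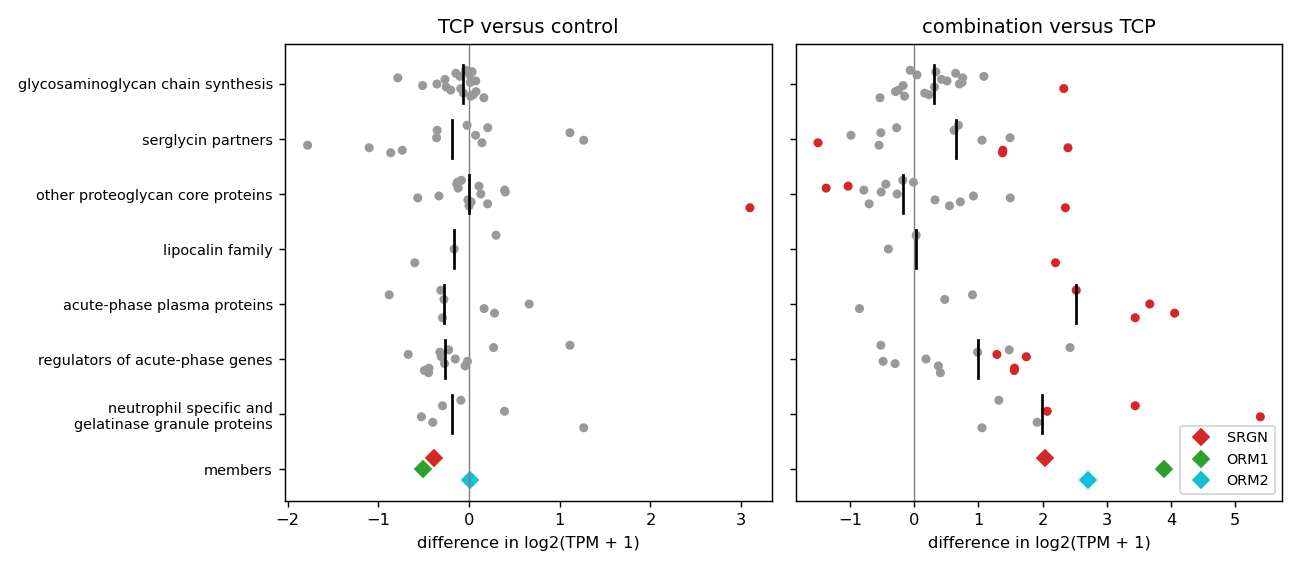
Differences in log2(TPM + 1) of the tested genes of 7 lists for TCP against control and for the combination against TCP, with called genes in red, other genes in grey, the list median as a black line, and SRGN, ORM1 and ORM2 as diamonds in the last row. With TCP against control the only red point is VCAN, and in the combination against TCP acute-phase and neutrophil granule lists have medians of 2.52 and 1.99.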

How the data were processed

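RNA of MV4-11 cells was sequenced by the authors from a stranded mRNA library, mapped to hg19 with subread-align and counted with featureCounts 1.6.4. The authors then turned the gene counts into the TPM that were deposited. The annotation, gene lengths and strand setting are not given in the sources used here. Because TPM sum to 1000000 per library, the depth is unknown and no counting interval is given.

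From these values log2(TPM + 1) was computed for the 14151 gene symbols with at least 1 TPM in at least 2 of 8 libraries, and fitted by group with limma (version 3.58.1, R version 4.3.3), with a trend of variance on mean. The count model of the study was not used, as the files hold no counts. Groups and replicates come from the labels. SRGN, ORM1 and ORM2 and the gene lists were chosen with earlier results of these data known.

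Named genes are these 3, the 5 most alike for each, the nearest 3 listed genes on each side in a GRCh37 annotation, up to 4 tested genes per list with the largest palbociclib difference, and every list gene called with TCP. Other names are marked. Sequences were read with Python 3.11.15 from GRCh37 and from RefSeq tables (GRCh38.p14), and no coordinates were converted. Alternatives were a pseudocount of 0.1, no filter, a filter at a mean of 5 TPM, scaling by quantiles or by median ratios, a replicate block, only the groups compared, no trend, an adjusted p below 0.05, each library left out, and ORM1 and ORM2 summed.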

Additional observations from a re-analysis of the deposited data

How the results depend on the processing

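In every alternative none of SRGN, ORM1 and ORM2 was called with TCP against control. SRGN was called in the combination against TCP in every alternative. The calls of ORM1 and ORM2 there are no measure of stability, since the filter on low values passed them only through libraries with palbociclib. For SRGN the difference of combination and TCP ranged from 1.74 (quantile normalization) to 2.22 (median-ratio scaling), and that of TCP and control from -0.54 (quantile normalization) to -0.26 (without TCP replicate 1), with adjusted p of 0.120 to 0.836. ORM2 with TCP against control changed sign, to -0.28 with a pseudocount of 0.1 and -0.0693 with quantile normalization, and lay between -0.26 and 0.29 with a library left out. The sum of ORM1 and ORM2, of which ORM1 is the larger part, differed by -0.48 and is no estimate for ORM2. The interaction of SRGN became 0.12 with quantile normalization. The cause was not tested. With quantile normalization 887 genes were called higher and 703 lower in the combination against TCP, and 738 and 473 with palbociclib against control.

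With TCP against control, 8 genes in all were called, and 3 with quantile normalization, 3 with median-ratio scaling, 0 with only the groups compared (853 had an unadjusted p below 0.05 in limma), 36 with an adjusted p below 0.05, and 0 to 1 with a library left out. With palbociclib against control 1288 were called, and 787 to 1341 with a library left out, the lowest without palbociclib replicate 2. In the combination against palbociclib 71 were called, and 42 with a pseudocount of 0.1, 38 with no filter, 10 with only the groups compared, 183 with an adjusted p below 0.05, and 1 to 52 with a library left out, the lowest with 1 palbociclib or 1 combination library left out. Where a library was left out, its lone partner was assumed to vary like the other groups.

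Same-numbered libraries deviated together across genes (r = 0.169 to 0.491 over 6 pairs of groups), but the labels do not say what a number shares. With a replicate block 20 genes were called with TCP against control and 114 in the combination against palbociclib. The adjusted p of SRGN with TCP against control was then 0.120 (limma), and no call of SRGN, ORM1 or ORM2 changed.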
